A study of Homo sapiens with 6 samples.

Results

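The 9 genes described here encode proteins that start, restrain, sense or finish blood clotting, or that turn plasminogen into plasmin: F3, TFPI, THBD, F2R, F13A1, PLAU, PLAUR, PLAT and SERPINE2. They were taken from a list of names, and each of the 9 was represented by 1 probe set annotated to that gene alone, out of 18417 genes measured singly. They were chosen by name with the knockdown against control differences of these 6 arrays in view, since F13A1 had the largest rise of all genes there. The differences of the 9 genes are therefore given as a description, with standard errors and without tests.

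RNA came from MDA-MB231, a breast cancer line derived from a metastasis, grown in DMEM/F12 with fetal bovine serum and harvested in log phase. The knockdown group is 3 arrays of 1 clone in which G9a, the histone H3 methyltransferase encoded by EHMT2, was stably knocked down; the submitters call these cells less metastatic. The control group is 3 arrays of the untreated parental line, so the groups also differ in clonal selection and in whatever carried the knockdown, and these cannot be told apart from the loss of G9a. Nothing says that replicates came from separate cultures, so every error below rests on the spread between these arrays, which may be technical. Each SD is the gene's own spread, while each standard error (SE) comes from a fit that draws the gene's variance toward that of all genes. For a gene of wide spread, such as F13A1, this makes the SE smaller, and for a gene of narrow spread, such as F2R, larger.

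Clotting outside the blood vessel starts when tissue factor (F3) binds factor VII, and it ends in thrombin, which makes fibrin and activates factor XIII, the enzyme that crosslinks fibrin strands. TFPI blocks the tissue factor complex, thrombomodulin (THBD) turns thrombin into an activator of the protein C anticoagulant, and F2R is the receptor through which thrombin signals to cells. Fibrin and matrix are cleared by plasmin, which urokinase (PLAU, held at the cell surface by its receptor PLAUR) and tissue plasminogen activator (PLAT) release from plasminogen, while SERPINE2 inhibits thrombin and the plasminogen activators. Tumour cells often make tissue factor and urokinase themselves, and this pericellular proteolysis is a known part of invasion.

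Promoter sequence was taken from RefSeq (GRCh38.p14) as the 250 bases before each annotated start. Windows of 6 of the 9 genes were used here. PLAT, THBD and F2R were left without one, which does not show that RefSeq lacks their starts. The windows of F13A1, F3 and SERPINE2 are shown because the arrays of these genes did not overlap between the groups (below). The arrays of PLAT did not overlap either, but no window of it was examined. Capitals mark matches, on either strand, to 7 short patterns: TGANTCA for AP-1, GGGCGG for the GC box, CACGTG for the E box, TATAAA for the TATA box, GCGNGGGCG for EGR proteins, GAGGAA for the ETS core and, for the GATA family, AGATAA.
F13A1, chr6:6320663-6320912, minus strand: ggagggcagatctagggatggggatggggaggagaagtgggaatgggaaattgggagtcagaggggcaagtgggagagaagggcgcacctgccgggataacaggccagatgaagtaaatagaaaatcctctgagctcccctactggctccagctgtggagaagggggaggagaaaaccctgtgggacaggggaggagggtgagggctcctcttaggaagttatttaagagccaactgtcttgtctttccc
F3, chr1:94541760-94542009, minus strand: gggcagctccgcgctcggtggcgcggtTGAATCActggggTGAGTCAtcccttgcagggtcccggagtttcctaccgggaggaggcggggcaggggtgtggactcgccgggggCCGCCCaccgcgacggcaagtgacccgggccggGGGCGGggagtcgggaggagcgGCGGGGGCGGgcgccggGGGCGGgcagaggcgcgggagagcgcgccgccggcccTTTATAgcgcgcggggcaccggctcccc
SERPINE2, downstream of its 2 starts, chr2:224031479-224031728, minus strand: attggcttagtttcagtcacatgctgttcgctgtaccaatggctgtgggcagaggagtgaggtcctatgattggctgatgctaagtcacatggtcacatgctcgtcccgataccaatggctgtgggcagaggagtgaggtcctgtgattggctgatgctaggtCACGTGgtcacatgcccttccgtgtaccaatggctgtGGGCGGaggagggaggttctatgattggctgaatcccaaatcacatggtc
SERPINE2, upstream start, chr2:224038641-224038890, minus strand: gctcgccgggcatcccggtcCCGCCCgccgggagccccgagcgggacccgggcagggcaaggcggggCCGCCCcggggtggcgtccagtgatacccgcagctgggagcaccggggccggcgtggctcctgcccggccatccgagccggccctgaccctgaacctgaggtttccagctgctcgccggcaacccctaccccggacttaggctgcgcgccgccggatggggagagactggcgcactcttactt

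The F13A1 window held none of the 7 patterns and 2 CpG dinucleotides, against a median of 11 over 35116 such windows of all genes. Its share of G or C was 55.6%, against a median of 58%. The F3 window held 34 CpG, 8 matches and 78% G or C, with a higher share of G or C than 94.3% of windows. Its matches were 2 for AP-1, 4 for the GC box, 1 for the TATA box and 1 for EGR, the last overlapping a GC box match. The SERPINE2 windows held 6 and 28 CpG, with an E box and a GC box in the first and 2 GC boxes in the second. Among the windows not printed, the one of PLAUR held 1 AP-1 and 1 EGR match, the one of TFPI 1 ETS core match, and PLAU 3 GC box and 2 ETS core matches at one start and none at the other. A low CpG count was not particular to F13A1: the TFPI window also held 2, and the PLAU window without matches held 4. The other PLAU window held 24 and that of PLAUR 13. Over all windows an AP-1 match was found in 6.57%, a GC box in 42.6%, an E box in 6.34%, the TATA box in 10.7%, EGR in 8.41%, the ETS core in 23.6% and the GATA factor pattern in 9.17%. These are letter matches and not known binding sites.

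F13A1 encodes the A subunit of factor XIII, which carries the catalytic site of this transglutaminase. Its log2 intensity was 11.51, 11.53 and 11.63 on the knockdown arrays, against 9.93, 10.08 and 9.24 on the control arrays. The groups lay far apart, with a gap of 1.42 between the lowest knockdown and the highest control array, and control replicate 3 lay below the other control arrays. The mean was 11.56 ± 0.06 in the knockdown and 9.75 ± 0.45 in control (SD, n = 3), a difference of 1.80 ± 0.19 (SE) or 3.49-fold, rank 1 of the 18417 genes for a rise. Control replicate 3 was 0.77 below the mean of the other 2 control arrays (value -0.77), and without it the difference was 1.55. The spread of F13A1 around its group means (residual SD 0.32) exceeded that of 99.5% of genes, for which the median was 0.0960, and most of it came from the control arrays. In RNA pooled over cells, more cells that express a gene and more RNA per cell cannot be told apart.

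PLAT encodes tissue plasminogen activator. It read 12.61, 12.65 and 12.56 on the knockdown arrays, against 12.97, 12.99 and 13.24 on the control arrays. Every knockdown array lay below every control array, and control replicate 3 was again the one farthest from the knockdown. The mean was 12.61 ± 0.04 in the knockdown and 13.07 ± 0.15 in control (SD, n = 3), a difference of -0.46 ± 0.08 (SE), to 0.728 of the control level. Without control replicate 3 it was -0.37.

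SERPINE2, also called protease nexin-1, read 9.38, 9.40 and 9.49 on the knockdown arrays, against 9.67, 9.66 and 9.95 on the control arrays. The groups did not overlap, by a gap of 0.17. The difference was -0.34 ± 0.09 (SE), to 0.793 of the control level, and -0.24 without control replicate 3.

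F3 read 11.45, 11.48 and 11.54 on the knockdown arrays, against 11.66, 11.67 and 11.80 on the control arrays. The gap between the groups was 0.12, larger than the spread within the knockdown arrays (0.0909) and smaller than that within the control arrays (0.13). The difference of this tissue factor gene was -0.22 ± 0.06 (SE), to 0.860 of the control level, and -0.17 without control replicate 3. Its inhibitor TFPI read 10.94, 11.07 and 11.11 on the knockdown arrays, against 11.13, 11.05 and 11.24 on the control arrays. These overlapped, with a difference of -0.10 ± 0.07 (SE) that was 0.0064 with array weights.

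THBD read 9.80, 9.79 and 9.78 on the knockdown arrays, against 9.40, 9.64 and 9.84 on the control arrays. The knockdown arrays of this thrombomodulin gene were nearly alike and the control arrays spread around them. The mean was 9.79 ± 0.0097 in the knockdown and 9.63 ± 0.22 in control (SD, n = 3), a difference of 0.16 ± 0.10 (SE) that moved between 0.05 and 0.27 as single arrays were left out.

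The urokinase gene, its receptor gene and the thrombin receptor gene differed least. PLAU read 11.75, 11.77 and 11.84 on the knockdown arrays, against 11.75, 11.75 and 11.69 on the control arrays, a difference of 0.06 ± 0.06 (SE). PLAUR read 12.35, 12.32 and 12.20 on the knockdown arrays, against 12.35, 12.38 and 12.21 on the control arrays, a difference of -0.02 ± 0.07 (SE). F2R read 10.32, 10.40 and 10.44 on the knockdown arrays, against 10.35, 10.38 and 10.36 on the control arrays, a difference of 0.02 ± 0.06 (SE). In each of these 3 genes the groups overlapped, and for PLAUR and F2R the difference changed sign when 1 array was left out, reaching 0.02 and -0.0029.

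**Figure D1:**
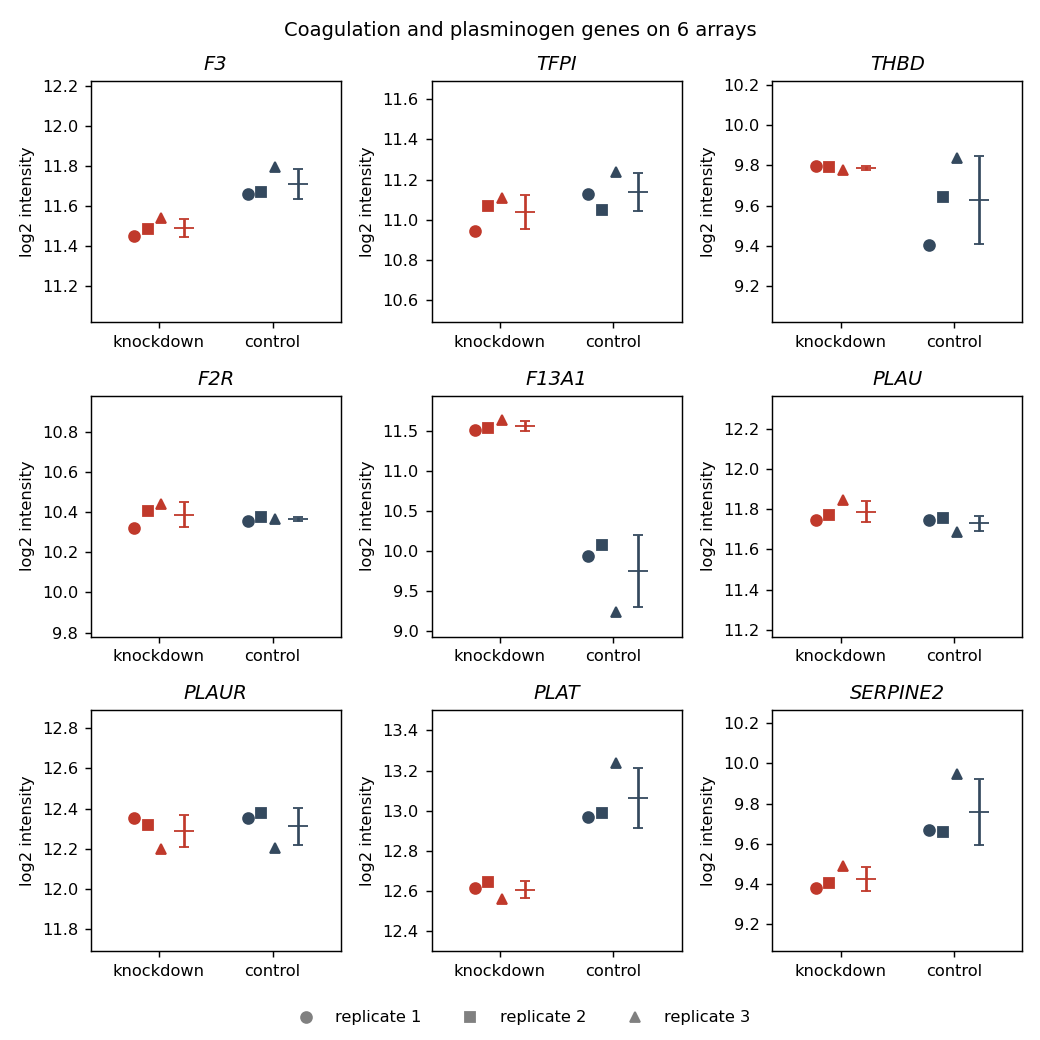
Log2 intensity of each gene on the 3 knockdown arrays (red, left) and the 3 control arrays (dark, right), with symbols for replicates 1 to 3 and a bar for the mean ± SD; each panel spans 1.2 log2 units except that of F13A1, which spans 3. The groups are separate for F13A1, F3, PLAT and SERPINE2, and control replicate 3 is the outermost control array in all 4 of them.

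Across the 9 genes, 1 was higher and 3 were lower with no overlap between the groups. Over all 18417 genes, 14.3% were higher and 12.7% lower without overlap (27.0% either way). The genes were listed with this contrast in view, so nothing is read from these counts. The median difference of the 9 was -0.02, against 0.03 over all genes. None of the 9 lay in the lowest 33.3% of genes by mean intensity, so a filter at that level kept them all.

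In the 4 genes without overlap the same control array lay farthest from the knockdown. Control replicate 3 differed from the mean of the other control arrays by -0.77 for F13A1, 0.26 for PLAT, 0.29 for SERPINE2 and 0.13 for F3, in each case away from the knockdown. It also stood 0.31 above them for THBD and 0.15 for TFPI, and 0.16 below them for PLAUR (value -0.16), while for F2R it differed by 2.5e-04. The sign of the 4 differences held with any 1 array left out, with ranges of 1.55 to 1.97 for F13A1, -0.51 to -0.37 for PLAT, -0.38 to -0.24 for SERPINE2 and -0.24 to -0.17 for F3.

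**Figure D2:**
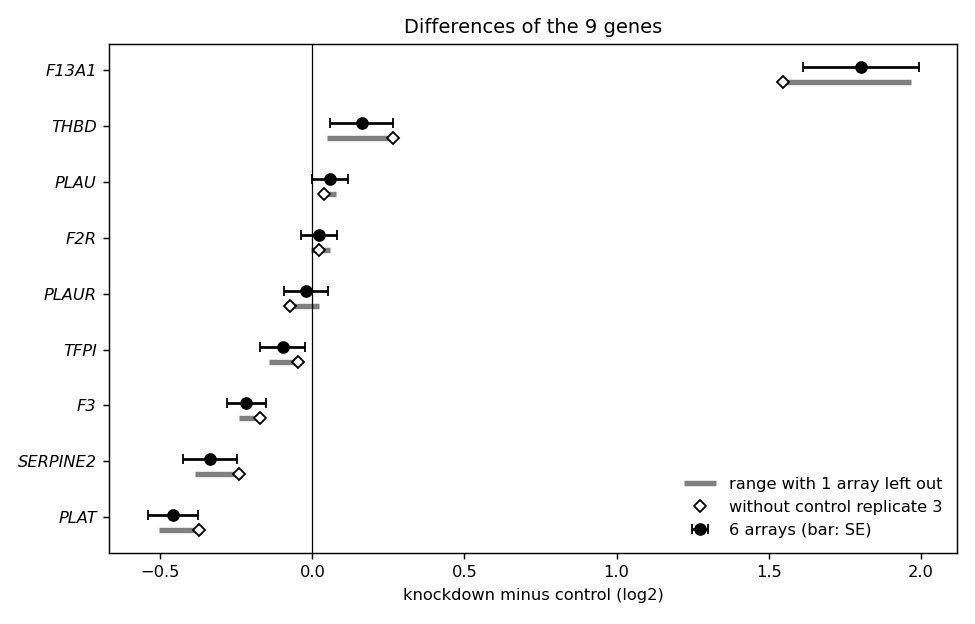
Difference between knockdown and control on the log2 scale for the 9 genes: black points with bars show the value from 6 arrays ± SE, grey bars the range over the 6 fits with 1 array left out, and open diamonds the value without control replicate 3. That diamond lies at the end of the grey bar nearest to 0 for F13A1 (1.55), PLAT (-0.37), SERPINE2 (-0.24) and F3 (-0.17).

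The remaining genes of these pathways were drawn from 5 lists, and 66 of their 70 genes were measured singly. None of the 66 passed the adjusted threshold in either direction (limma, lmFit and eBayes, adjusted p of 0.05), against 3.05% of all genes, 1.28% upward and 1.78% downward. At an unadjusted p of 0.05, 8 did (5 higher, 3 lower), or 12.1% against 19.4% of all genes, and 11 (16.7%) had groups that did not overlap, against 27.0% of all genes. Their median difference was 0.03, the same as over all genes to that precision, and their differences ran from -0.18 to 0.34. Of the 66, 34 lay in the lowest 33.3% of genes by mean intensity, and with no background value on these arrays a low level cannot be told from no expression. Other fits gave no call either, except the one with array weights, in which 5 passed: TGM5, FGG, ST14 and F2RL2 upward and PROS1 downward, with 3328 calls over all genes in that fit. The other 4 genes of the lists were not analysed here.

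Among 9 transglutaminases and related genes, none passed. The largest difference was that of TGM5, a skin transglutaminase gene, at 0.25 ± 0.07 (SE; limma, adjusted p = 0.0883), with a mean of 7.31 ± 0.04 in the knockdown and 7.06 ± 0.09 in control (SD, n = 3). F13B, which encodes the carrier B subunit of factor XIII, stood at 0.06 ± 0.11 (adjusted p = 0.818), with 4.73, 4.33 and 4.44 on the knockdown arrays, against 4.57, 4.45 and 4.32 on the control arrays. TGM2, the tissue transglutaminase gene, was at 0.08 ± 0.06 (adjusted p = 0.550). F13A1 itself, at 1.80, was not set against these genes by a test.

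Among 19 clotting factors and genes for their processing, none passed. The fibrinogen gamma chain gene FGG was at 0.34 ± 0.09 (SE; limma, adjusted p = 0.0835), with 5.08, 4.94 and 4.96 on the knockdown arrays, against 4.48, 4.75 and 4.75 on the control arrays; the groups did not overlap. The other fibrinogen chains FGA (0.0079) and FGB (0.04) were close to 0, and F2, the prothrombin gene, was at 0.16 ± 0.08 (adjusted p = 0.318). LMAN1, a cargo receptor for factors V and VIII, was at -0.15 ± 0.08 (adjusted p = 0.343).

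Among 12 anticoagulants, none passed. SERPINC1, the antithrombin gene, was at 0.18 ± 0.08 (SE; limma, adjusted p = 0.241), and PROCR, the endothelial protein C receptor gene that works with thrombomodulin, at -0.18 ± 0.08 (adjusted p = 0.254). PROCR read 9.66, 9.60 and 9.47 on the knockdown arrays, against 9.74, 9.67 and 9.84 on the control arrays.

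In the plasminogen system, none of 15 measured genes passed. ST14, the gene of matriptase, a surface protease that can activate urokinase, was at 0.20 ± 0.06 (SE; limma, adjusted p = 0.134), with 7.95, 7.92 and 7.88 on the knockdown arrays, against 7.66, 7.68 and 7.81 on the control arrays. PLG, the plasminogen gene, was at -0.08 ± 0.10 (adjusted p = 0.711). ANXA2 and S100A10, whose products form a plasminogen and PLAT binding complex at the cell surface, were at -0.02 ± 0.06 (adjusted p = 0.863) and 0.03 ± 0.06 (adjusted p = 0.819).

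Among 11 measured genes of thrombin receptor signalling, none passed. F2RL2, a protease-activated receptor gene next to F2R on chromosome 5, was at 0.33 ± 0.11 (SE; limma, adjusted p = 0.147), with 7.18, 7.63 and 7.38 on the knockdown arrays, against 7.08, 6.99 and 7.13 on the control arrays. GNA13, a G protein subunit gene that acts below thrombin receptors, was at -0.15 ± 0.06 (adjusted p = 0.200), and ARHGEF12 at -0.16 ± 0.06 (adjusted p = 0.213). TGM2, FGA, FGB, LMAN1, PROCR, ANXA2, S100A10, GNA13, ARHGEF12 and PROS1 were named after their values were seen.

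**Figure D3:**
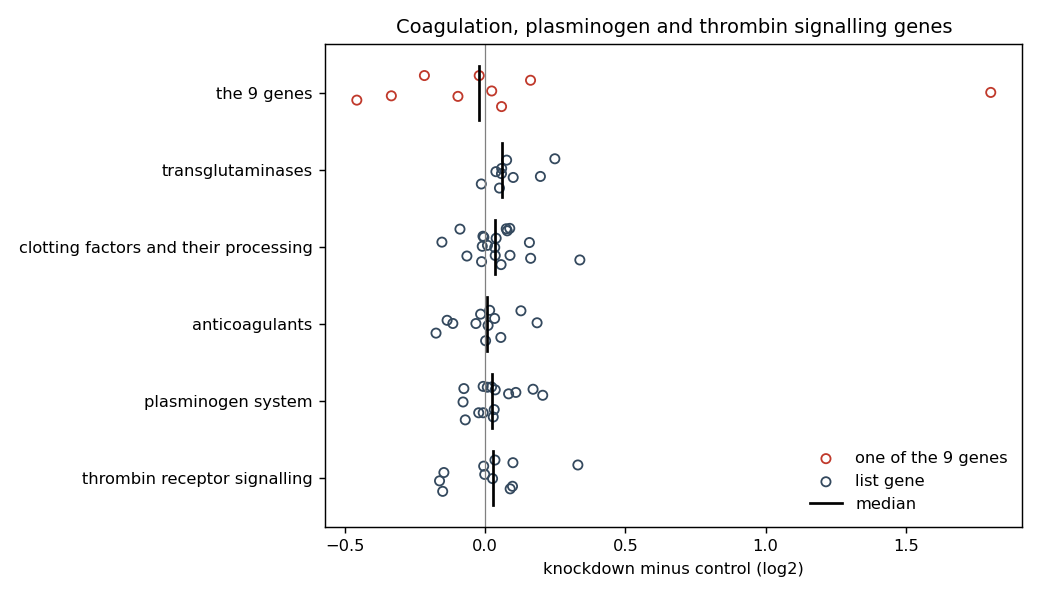
Difference between knockdown and control (log2) for the 9 genes (top row) and for 66 genes in 5 lists of the same pathways, 1 circle per gene, with a line at each median. The 66 list genes, of which none passed the adjusted threshold, lie between -0.18 and 0.34, and the 9 genes, which were not tested, between -0.46 and 1.80.

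F13A1 is made in the body mainly by megakaryocytes and by monocytes and macrophages, so markers of these cells were read beside it. None of 7 platelet and megakaryocyte genes and none of 10 monocyte and macrophage genes passed, with medians of 0.09 and 0.04. The filter on low values left out 6 of the 7 and 7 of the 10. For these a low level cannot be told from no expression, so no conclusion is drawn from the lack of a call. The 7 platelet genes summed to 48.3 to 50.0 log2 units on the knockdown arrays, against 47.9 to 48.9 on the control arrays, and the 10 monocyte genes to 66.5 to 68.0, against 66.4 to 67.4. The platelet factor gene PF4 (-0.0090) and the macrophage scavenger receptor gene CD163 (-0.01) were close to 0, GP6 was at 0.15 and CD68 at -0.19. CSF1R (0.22) and the pan-leukocyte gene PTPRC (0.21) were higher without passing (limma, adjusted p = 0.104 and 0.0962). Mean levels over all arrays were 5.68 for PF4, 5.49 for CD163 and 5.04 for PTPRC, below every array median. CSF1R (7.86) lay near the medians, and GP6 (8.04) and CD68 (12.24) lay above them.

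THBD and TFPI are known from endothelium, and of 8 endothelial genes 1 passed. CDH5, the VE-cadherin gene, rose by 0.71 ± 0.12 (SE; limma, adjusted p = 0.0210), with 8.32, 8.17 and 8.03 on the knockdown arrays, against 7.24, 7.46 and 7.67 on the control arrays. That call was lost in 6 of the 14 alternative fits, with adjusted p from 0.0615 to 0.0887: those without any 1 of the knockdown arrays or without control replicate 2, with every probe set tested, and with the replicate block. PECAM1 was at 0.42 (adjusted p = 0.0591), ESAM at -0.20 and VWF at 0.08, the list's median was 0.08, and its sum ran from 62.2 to 63.2 on the knockdown arrays, against 60.7 to 62.3 on the control arrays. The part of the endothelial, platelet and monocyte markers in the differences of the 9 genes was not tested. None of 8 hepatocyte genes passed (APOA1 0.07). Of 8 fibroblast genes 1 did, LUM, which fell by 1.31 (limma, adjusted p = 0.00732), with COL1A1 at 0.18. The filter on low values left out 3 of the 8 endothelial, 7 of the 8 hepatocyte and 5 of the 8 fibroblast genes. For these too a low level cannot be told from no expression. The genes named here outside the fixed rule (PF4, CD163, CSF1R, PTPRC, CDH5, PECAM1, VWF, LUM and, next, CDH1, EGFR, GATA3 and EPCAM) were chosen after their values were seen.

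As checks of the labels, EHMT2 read 9.66, 9.59 and 9.51 on the knockdown arrays, against 10.21, 10.27 and 9.93 on the control arrays, and fell by 0.55 ± 0.10 (SE; limma, adjusted p = 0.0259), a call that was lost in 6 of the 14 alternative fits. Both groups are of the same line, so differences between them cannot check which line it is. Of 6 genes typical of mesenchymal breast cancer lines none passed, and none lay in the lowest 33.3% of genes by mean intensity. Of these 6, 2 had positive values, CAV1 (0.11) among them, and 4 negative ones, down to -0.21 for EGFR, with a median of -0.04. In 5 of the 6 (83.3%, against 27.0% of all genes) the groups did not overlap, 2 higher and 3 lower, and the 6 summed to 78.9 to 79.1 log2 units on the knockdown arrays, against 79.2 to 79.3 on the control arrays. Of 6 genes taken as low in such lines, 1 passed, CDH1 (0.45; limma, adjusted p = 0.0177), against 3.05% of all genes. That call was lost in 6 alternative fits, and the filter on low values left CDH1 out of the test. With a mean of 7.61 in the knockdown and 7.16 in control, CDH1 was 1 of 3 genes of this list in the lowest 33.3%. The keratin gene KRT18 did not pass (0.10). Its level of 12.31 in the knockdown and 12.21 in control, above every array median, goes against its place in that list. The same holds for GATA3 (9.32 in the knockdown and 9.26 in control) and EPCAM (8.93 and 8.79), which also lay above every array median. Array medians lay between 7.79 and 7.86, and Pearson r between arrays, across probe sets, between 0.992 and 0.997.

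Chromosome neighbourhoods were compared through the 38 nearest measured genes around each of the 9, in the gene order of GRCh38.p14. The median difference of these neighbours lay between -0.03 and 0.08 for all 9 genes, close to the median of all genes. Around F13A1 on chromosome 6, which was chosen as the largest rise and so had to exceed its neighbours, these had a median of 0.0078 and a range of -0.41 to 0.56, and the genes beside it, NRN1 and LY86-AS1, were at 0.07 and 0.29. Neighbours past the adjusted threshold (3.05% of all genes) numbered 3 of 38 around F13A1, F3 and F2R and fewer around the other 6; those of F13A1 were LINC00518, upward, and GCNT2 and C6orf52, downward. PLAT on chromosome 8, at -0.46, lay below each of its 38 neighbours, whose lowest value was -0.41. SERPINE2 on chromosome 2, at -0.34, had neighbours with a median of 0.07 and a range of -0.43 to 0.55. F3 on chromosome 1 lay among neighbours of which 26 of 38 had negative values, with a median of -0.03, and TFPI, at -0.10, lay between CALCRL (-0.36) and GULP1 (-0.19). THBD, at 0.16, lay among neighbours of which 29 of 38 had positive values, with a median of 0.08. Over all 18417 genes, 7441 had negative and 10976 positive values.

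**Figure D4:**
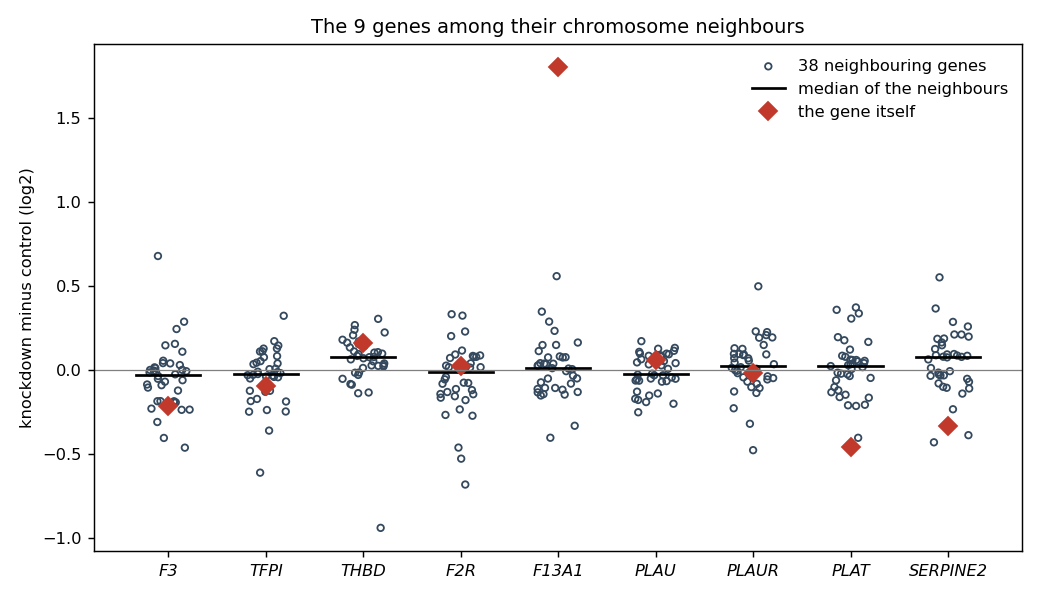
Difference between knockdown and control (log2) of each of the 9 genes (red diamonds) and of the 38 measured genes nearest to it in chromosome order (circles), with a line at the neighbours' median. The neighbours' medians lie between -0.03 and 0.08; that F13A1 lies above its neighbours follows from how it was chosen.

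The genes whose profile over the 6 arrays came nearest to that of F13A1 were found by the mean absolute difference between profiles, each centred on its control mean. They were CXCL10, an interferon-inducible chemokine gene (0.260 log2 units apart on average), CCDC190 (0.369), the long noncoding RNA UCA1 (0.466), PDE7B, a cyclic AMP phosphodiesterase gene (0.467), and the cancer-testis gene SSX1 (0.471). This likeness rests on the group difference that also chose F13A1 and is a description. CXCL10 read 9.34, 9.37 and 9.19 on the knockdown arrays, against 8.23, 7.97 and 7.40 on the control arrays, and PDE7B read 10.45, 10.36 and 10.39, against 9.71, 9.66 and 8.97. In both, as in F13A1, control replicate 3 was far the lowest array, and CCDC190 read 9.69, 9.90 and 9.65 on the knockdown arrays, against 8.78, 8.43 and 8.14 on the control arrays, lowest on the same one. UCA1 read 10.54, 10.90 and 10.69 on the knockdown arrays, against 9.51, 9.32 and 9.52 on the control arrays. SSX1 read between 11.95 and 12.07 on the knockdown arrays, against 10.84, 10.82 and 10.79 on the control arrays, which differed from each other by little.

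**Figure D5:**
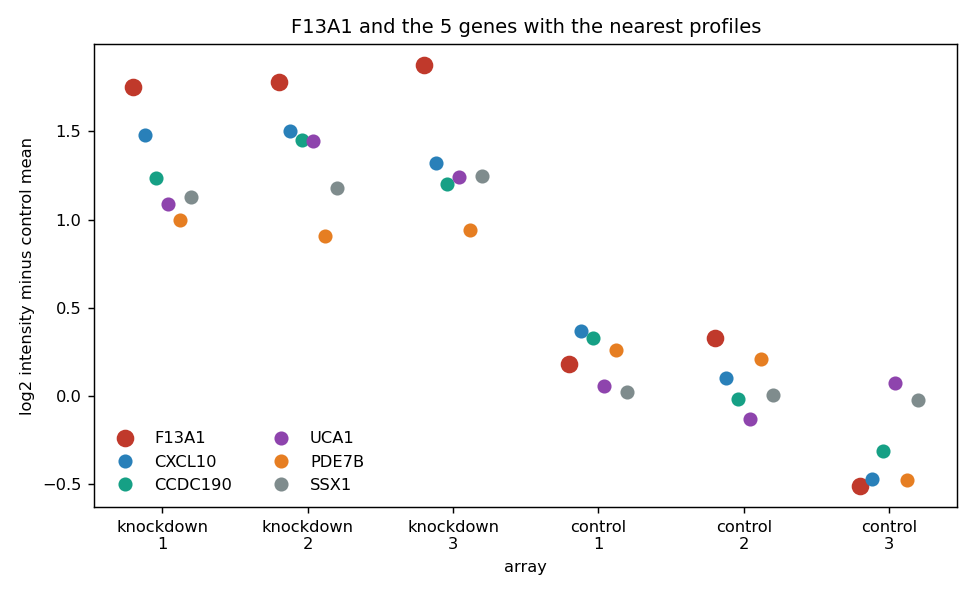
Log2 intensity minus the control mean on each of the 3 knockdown arrays (left) and 3 control arrays (right) for F13A1 (large red points) and the 5 genes nearest to it in mean absolute difference. F13A1, CXCL10, PDE7B and, less far, CCDC190 are lowest on control replicate 3, where UCA1 and SSX1 lie close to their control means.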

How the data were processed

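Biotin-labelled total RNA was read on 1-colour arrays, per the labels. The deposited log2 values, 1 per probe set and array, are the authors' summarised and scaled intensities; the software is not given in the sources used here, and the log base was inferred from the range of 2.13 to 14.8. Of 33297 probe sets, 19460 carried 1 gene symbol in the platform annotation and 1754 several; 19429 of the 19460 were matched to RefSeq (GRCh38.p14) by Entrez number. The probe set with the highest mean stood for each of 18417 genes. Differences are knockdown minus control from lmFit and eBayes of limma 3.58.1, run in R 4.3.3 (two-sided, 4 residual degrees of freedom), with Benjamini-Hochberg adjustment over all genes and a threshold of 0.05. The SE of each difference uses the moderated variance of eBayes. Fits were tested on simulated data.

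The 9 genes and the lists were chosen with earlier results of these data known. Genes named were the 9, EHMT2, PLG, F2 and F13B; up to 3 members past the threshold from each pathway list, or the largest difference where none passed; the gene of highest mean from each marker list; and the 5 profiles nearest to F13A1. A further gene named by the rule is not reported here. Replicate numbers come from the titles; deviations of same-numbered arrays correlated at -0.179, 0.0560 and 0.0478, so they were not taken as pairs. The number of arrays limits the precision. The 14 alternatives covered normalization, filtering, variance model, weights, probe set choice, the replicate number as a block and each array left out.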

Additional observations from a re-analysis of the deposited data

How the results depend on the processing

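Over all genes, 562 were called with 6 arrays. The count was 972 without the lowest 33.3% of genes by mean intensity, 1083 with a variance trend, 3328 with array weights and 60 with every probe set tested; it ran from 44 to 535 with 1 array left out, lowest with knockdown replicate 3 left out, then 70 (knockdown replicate 1 left out), 146 (control replicate 2), 198 (knockdown replicate 2) and 230 (control replicate 1). With the replicate number as a block, which the design does not support as a pairing, it was 217. Quantile normalization (622), median subtraction (568) and averaged probe sets (563) stayed within 1.5 times of it. The count of pathway list genes called was 0 of 66 and stayed 0 in 13 of the 14 alternatives, the replicate block and all 6 fits with 1 array left out included (0 in each), and was 5 with array weights; the filter on low values left 32 of the 66 in the test. Of the 9 genes, PLAUR (-0.12) and TFPI (0.0064) moved by more than their spread between replicates, both with array weights, and F13A1, PLAT, SERPINE2 and F3 kept their sign. EHMT2 kept its sign in every fit. The arrays carry no background values, so low signals limit what can be said of the genes in the lowest 33.3%.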
